A study of Homo sapiens with 8 samples.

Results

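SHROOM3, PDE1C, LRMDA, KAZN, ZFHX3, GNG7 and LDLRAD4 are 7 long protein-coding genes that carried many regions of higher chromatin accessibility in cells treated with siOrc6. They were chosen by having many regions in the authors' list of regions higher in siOrc6 than in siGl3 without H2O2, counted over the RefSeq gene (GRCh38.p14) and 5 kb on each side. No threshold of number was given for the choice, and other genes had as many or more. All 7 also had such a region within 1 kb of an annotated end of the gene. The stated rule does not name this trait, but only 10 of the 43 genes with 5 or more regions had it. It may have been part of the choice, so nothing is read from it. They are 7 of 19974 protein-coding genes, and they held 49 of the 7517 regions on that list. Because the untreated comparison chose the genes, its values are given below as a description, with no test.

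The assay was ATAC-seq, which uses a transposase to insert adapters where chromatin is open, and the cells were the human osteosarcoma line U2OS. All cells were transfected for 72 h with an siRNA, either the control siGl3 or siOrc6, which targets a subunit of the complex that binds replication origins. All were synchronized by a double thymidine block and released for 3 h, and they were collected untreated or after 5 mM H2O2 for 30 min. The 4 conditions (siGl3 or siOrc6, without or with H2O2) had 2 libraries each, numbered by batch, and the labels do not say whether these came from separate cultures. The deposited files hold 1 peak list per condition, named for both library numbers, and, per treatment, 1 list of regions higher and 1 of regions lower in siOrc6. No list gave read counts, so depth is unknown, the spread between libraries cannot be given, and no test across libraries was possible.

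The lists held between 97816 and 115292 peaks on chromosomes 1 to 22 and X. Of 8 osteoblast-lineage genes, RUNX2, SPP1, SPARC and BGLAP had a peak at an annotated promoter in every list, while SP7, COL1A1, COL1A2 and ALPL had none in any. None of 5 blood or 5 epithelial marker genes had one, against 2 of 4 neuronal and 2 of 6 melanocyte genes. ORC6 itself carried no changed region. An siRNA acts on the mRNA, so these data do not check the knockdown.

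Accessible regions inside long genes include alternative promoters and enhancers, and a gene can respond in one stretch of its length and not in another. The 7 genes share no pathway. SHROOM3 binds actin at cell junctions, where apical constriction bends epithelia, and KAZN encodes kazrin, a partner of periplakin linked to desmosomes and cell shape. PDE1C is a calmodulin-dependent phosphodiesterase that breaks down cyclic nucleotides, GNG7 a gamma subunit of heterotrimeric G proteins, and LDLRAD4 a membrane protein that dampens TGF-beta signalling by binding SMADs. ZFHX3 is a very large zinc finger homeobox transcription factor, and LRMDA is a leucine-rich repeat protein named for melanocyte differentiation.

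Higher regions reached an annotated RefSeq start site in 4 of the 7 genes, and 5 of the 49 regions held at least 1 such site. The 250 bases before the start are shown for 1 start of each of these 4 genes, because a higher region reached into them. Other starts at higher regions, internal ones of PDE1C and further ones of LDLRAD4, are not shown. At the PDE1C start shown, the percentile of peak signal in its list was not higher in siOrc6 than in siGl3, as given below. The sequences come from RefSeq (GRCh38.p14) and run 5′ to 3′ on the strand of the gene, in lower case, with capitals marking matches to the GC box (GGGCGG), the CCAAT box (CCAAT), the TATA box (TATAAA), the AP-1 site (TGACTCA) and the TEAD site (GGAATG) on either strand.

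GNG7 (chr19:2702695-2702944, minus strand): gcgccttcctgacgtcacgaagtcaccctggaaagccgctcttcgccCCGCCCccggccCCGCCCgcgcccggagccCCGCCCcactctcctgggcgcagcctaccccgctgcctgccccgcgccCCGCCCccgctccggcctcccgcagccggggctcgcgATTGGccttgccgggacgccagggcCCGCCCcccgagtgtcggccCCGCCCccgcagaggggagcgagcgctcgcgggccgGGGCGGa
LDLRAD4 (chr18:13217432-13217681, plus strand): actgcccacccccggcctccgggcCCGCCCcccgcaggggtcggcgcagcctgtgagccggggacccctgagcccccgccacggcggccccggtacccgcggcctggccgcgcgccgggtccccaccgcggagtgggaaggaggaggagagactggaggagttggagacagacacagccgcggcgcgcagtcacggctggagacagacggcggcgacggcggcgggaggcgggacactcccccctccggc
PDE1C (chr7:32428225-32428474, minus strand): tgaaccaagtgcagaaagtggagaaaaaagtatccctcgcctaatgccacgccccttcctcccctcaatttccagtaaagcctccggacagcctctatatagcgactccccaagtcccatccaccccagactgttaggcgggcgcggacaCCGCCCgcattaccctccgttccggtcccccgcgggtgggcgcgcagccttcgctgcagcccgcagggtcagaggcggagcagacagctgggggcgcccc
ZFHX3 (chr16:73144448-73144697, minus strand): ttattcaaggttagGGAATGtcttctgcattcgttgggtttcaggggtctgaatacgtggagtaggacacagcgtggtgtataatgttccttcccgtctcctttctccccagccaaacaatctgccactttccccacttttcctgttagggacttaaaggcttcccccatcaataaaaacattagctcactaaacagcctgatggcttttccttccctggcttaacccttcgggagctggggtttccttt

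These promoters differed in base composition. The GNG7 and LDLRAD4 stretches were 81.2% and 78.8% G or C with 36 and 32 CpG dinucleotides, and the PDE1C stretch was 64.0% with 19. The ZFHX3 stretch, at a start inside the gene, was 47.6% with 5. The median over 22012 promoters of protein-coding genes was 16 CpG dinucleotides, with quartiles of 5 and 25. For G or C content the median was 62.0%, with quartiles of 52.0% and 70.4%. GNG7 held 7 GC boxes and 1 CCAAT box, LDLRAD4 and PDE1C held 1 GC box each, and ZFHX3 held 1 TEAD match and no GC box. In promoters of the same length, a GC box was found in 53.7%, a CCAAT box in 32.7%, a TATA box in 9.02%, an AP-1 site in 3.46% and a TEAD site in 10.5%. None of the 4 stretches held TATAAA or the AP-1 letters. A match is a description of letters and not a bound site.

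Over whole promoter windows (250 bases before to 50 after a start), 11 of the 27 windows of the 7 genes lay at a higher region, against 5.22% of all windows. The genes were chosen on these same regions, and the 11 windows lie at only 5 higher regions, so nothing is read from this share. LDLRAD4 gave 4 of the 11 windows through a cluster of neighbouring starts. PDE1C gave 5, through a cluster of internal starts and its separate 5′ start. SHROOM3, LRMDA and KAZN had no start site of the promoter table in a higher region, and the SHROOM3 start had no peak in any list. The gene-end regions of these 3 genes lay at the 3′ end in SHROOM3, where SHROOM3-AS1 overlaps, at the 3′ end in LRMDA and at the 5′ limit of the annotated gene in KAZN. Other starts had strong peaks and no call. At chr7:32299279-32299578 in PDE1C the siGl3 and siOrc6 peaks stood at the 89.5 and 89.9 percentiles of peak signal in their lists without H2O2, and at 91.6 and 90.0 with it. At the KAZN start at position 14598685 of chromosome 1 they stood at 82.6 and 82.1, and at 80.2 and 83.5 with H2O2. At the ZFHX3 start at position 73048128 of chromosome 16 they stood at 72.3 and 79.9, and at 80.8 and 79.6 with H2O2.

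The number of regions depends on how many peaks a gene offers. Peaks of both untreated lists, merged where they overlapped or touched, numbered 327 in the 7 genes, and 57 of them (17.4%, 95% Wilson interval 13.7% to 21.9%) lay at a higher region. Over all genes and intergenic peaks the share was 7.36% of 123830. The choice of genes fixes this difference, and the interval covers counting error only, since neighbouring peaks are not independent. Regions lower in siOrc6 were not scarce there: 17 of the 327 merged peaks (5.20%) lay at 1, against 4.99% overall. These belonged to 13 lower regions, 6 of them in LRMDA, 3 in KAZN and 2 in SHROOM3.

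Scaled for length, the order of the genes changed. GNG7, the shortest at 191.5 kb, had 2.98 higher regions per 100 kb, and SHROOM3 at 348.0 kb had 2.23. LDLRAD4 had 1.12, PDE1C 0.974, LRMDA 0.703, ZFHX3 0.626 and KAZN, the longest at 1225 kb, 0.567. By peaks, 33.3% of the merged peaks of GNG7 and 24.3% of those of SHROOM3 lay at a higher region, placing them at the 99.2 and 97.6 percentiles of the 494 genes with at least 20 merged peaks. LDLRAD4 was lowest of the 7 at 13.3% (82.3 percentile), and the median of the 494 genes was 5.0%.

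**Figure D1:**
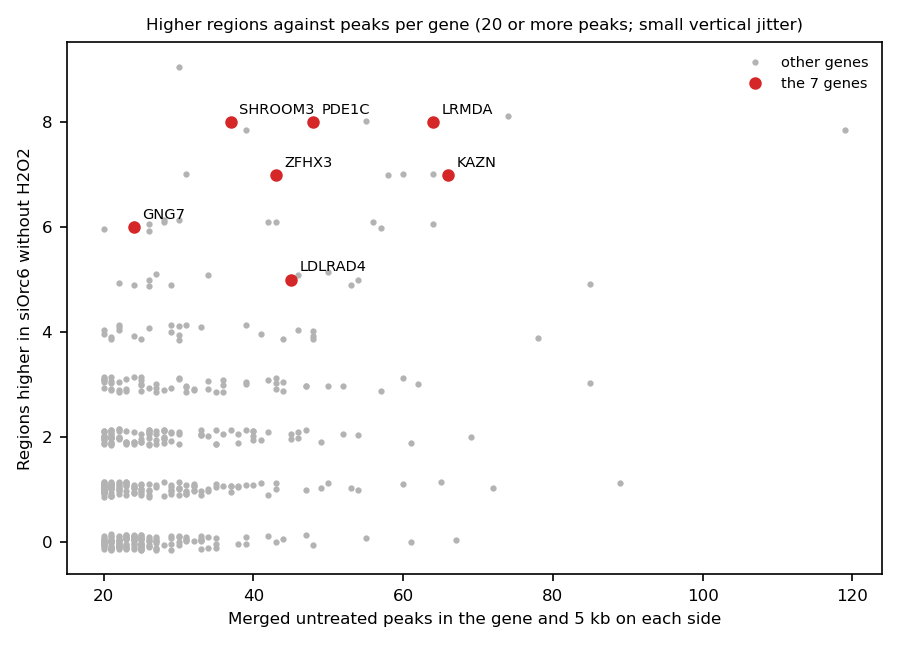
Each point is 1 of the 494 protein-coding genes with at least 20 merged untreated peaks, the 5 kb flanks included. The horizontal axis gives those peaks and the vertical axis the regions higher in siOrc6 without H2O2 (other genes with a small vertical jitter). The 7 genes (red) had 5 to 8 higher regions over 24 to 66 peaks, and other genes reached as many.

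The 7 genes were not the only ones at this level. TIAM2, a Rac activator, had the highest count of all genes at 9 regions. Of the genes most like the 7 by count, the transcription elongation gene AFF3, the reelin adaptor DAB1, the recombination gene RAD51B and the splicing regulator RBFOX1 had 8 each. PALLD (palladin, an actin organiser), IQCJ-SCHIP1 and the synaptic scaffold DLGAP1 had 7 each. NRXN3 also had 7, over 64 merged peaks, and came after these by regions per peak (it is named after its values were seen). None of the 8 genes TIAM2 to DLGAP1 had a higher region within 1 kb of an end. Since that trait may have been part of the choice of the 7, it is not read as a difference. RBFOX1 offered 119 merged peaks and carried 11 lower regions beside its 8 higher ones. In total 43 genes had 5 or more higher regions, and 10 of them had 1 at an end. LDLRAD4, the member with the fewest, had 5, and so did THBS1, SEMA5A and SPIDR, which also had a higher region at an end and are not among the 7 (SEMA5A and SPIDR are named after their values were seen). THBS1, the matrix protein thrombospondin, differed in scale, with 5 regions over a gene of 18.39 kb and 9 of its 11 merged peaks at a higher region.

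For contrast, 4 genes picked for regions lower in siOrc6, with earlier results known, were set beside them. The ion channel ASIC2 had 7 lower and 5 higher regions, the polarity gene PARD3 6 and 3, BCAS3 4 and 2, and RAC2 4 and 0. The share of merged peaks at a higher region was between 0.0% and 6.45% in these 4 genes and between 13.3% and 33.3% in the 7. Lower regions did not go only with low shares of higher ones: RBFOX1 with 11 lower regions had 7.56% of its peaks at a higher region, RAD51B with 5 had 13.5%, and LRMDA, one of the 7, had 14.1% with 6. Both sets were chosen on the untreated comparison, so these values are a description.

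Higher and lower regions lay along the genes in different ways. Coordinates are on hg38, and distances below are to centres of regions, measured from the 5′ end of the annotated gene. In LDLRAD4 (435.1 kb) 4 of the 5 higher regions lay within 18.07 kb of the 5′ end, and the last at 119.4 kb. In GNG7 1 region lay at the start and 5 lay between 91.38 and 184.4 kb, that is 47.7% to 96.3% of the gene length. In SHROOM3 they were spread from 24.16 to 347.2 kb, in PDE1C from the start to 686.2 kb, in KAZN from the start to 897.2 kb and in ZFHX3 from 0.5615 to 918.8 kb.

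LRMDA was split. Of its 8 higher regions, 2 lay at 6.83% and 8.35% of the gene length and 6 between 77.8% and 99.9%. Its 6 lower regions lay at 4.96%, 30.4% and, for 4 of them, between 54.9% and 60.8%. No lower region lay in the stretch with the 6 higher ones. With H2O2, whose libraries are different ones, the regions called were 3 higher regions at 77.8%, 94.0% and 99.9%, and 3 lower ones at 21.4%, 30.4% and 54.9%. The H2O2 lists have the same 2 batch numbers as the untreated lists.

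**Figure D2:**
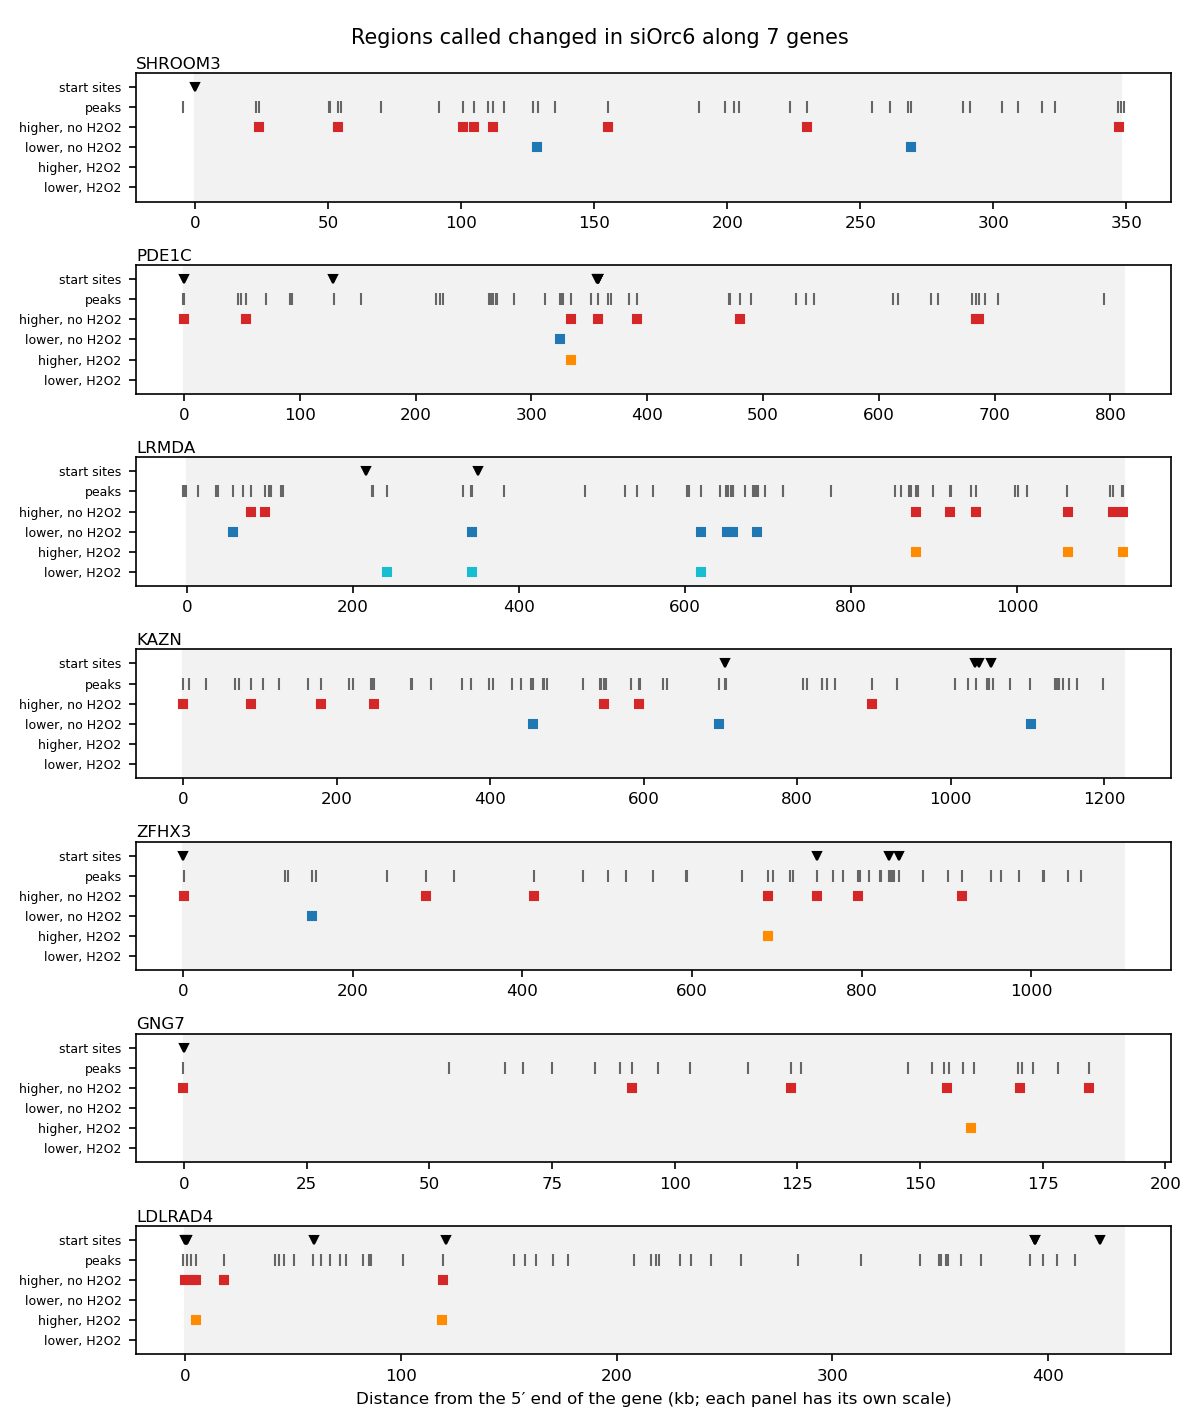
Each panel shows 1 gene, with distance from its 5′ end in kb on the horizontal axis and the gene body shaded. Rows give annotated start sites (triangles), merged untreated peaks (ticks) and the regions called higher or lower in siOrc6 without and with H2O2 (squares at region centres). LRMDA has its lower regions up to 60.8% of its length and 6 of 8 higher ones beyond 77.8%, and LDLRAD4 has 4 of 5 higher regions near the 5′ end.

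The strength of a peak is given here as the percentile of the authors' peak signal in the list of its condition. Peak signal followed peak width, with a Spearman correlation across peaks between 0.842 and 0.882 in the 4 lists, given as a description. The lists differ in length, so percentiles of different conditions are set side by side and do not measure a change. A region with several peaks takes the highest.

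Without H2O2, all 49 higher regions had a siOrc6 peak and 38 had a siGl3 peak. The median percentile was 51.7 in siGl3, with unlisted regions taken as 0, and 69.6 in siOrc6. For all 7517 higher regions these medians were 41.7 and 61.4. The siOrc6 percentile was above the siGl3 percentile in 47 of the 49, against 96.6% of all higher regions. The exceptions among the 49 were regions where siOrc6 peaks covered more sequence but did not stand at a higher percentile. At the 3′ end of SHROOM3 (chr4:76781766-76783180) the percentiles were 80.0 in siGl3 and 77.9 in siOrc6, and peak length was 676 and 1085 bp. At the 5′ start of PDE1C (chr7:32427326-32429196) they were 83.8 and 83.4, with 1427 and 1691 bp.

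Peaks covered more sequence in siOrc6 at 46 of the 49 regions without H2O2, against 96.9% of all higher regions. Median width was 745 bp for the higher regions of the 7 genes, ranging from 203 bp in PDE1C to 3125 bp in LDLRAD4, against 648 bp for all higher regions. In 6 of the 49 regions siGl3 had more separate peaks than siOrc6, as where 3 siGl3 peaks stood against 1 siOrc6 peak in SHROOM3. The others had 2 against 1 and lay in LDLRAD4 (3 regions), PDE1C and GNG7. This was the case for 4.36% of all higher regions, and the difference was not tested. Over whole genes, peak numbers did not follow the higher regions: SHROOM3 had 36 peaks in siGl3 and 29 in siOrc6, and LRMDA 62 and 56. PDE1C, GNG7 and LDLRAD4 also had fewer in siOrc6, while KAZN had 60 in both and ZFHX3 had 36 and 39. The whole untreated lists held 115292 peaks in siGl3 and 109304 in siOrc6.

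**Figure D3:**
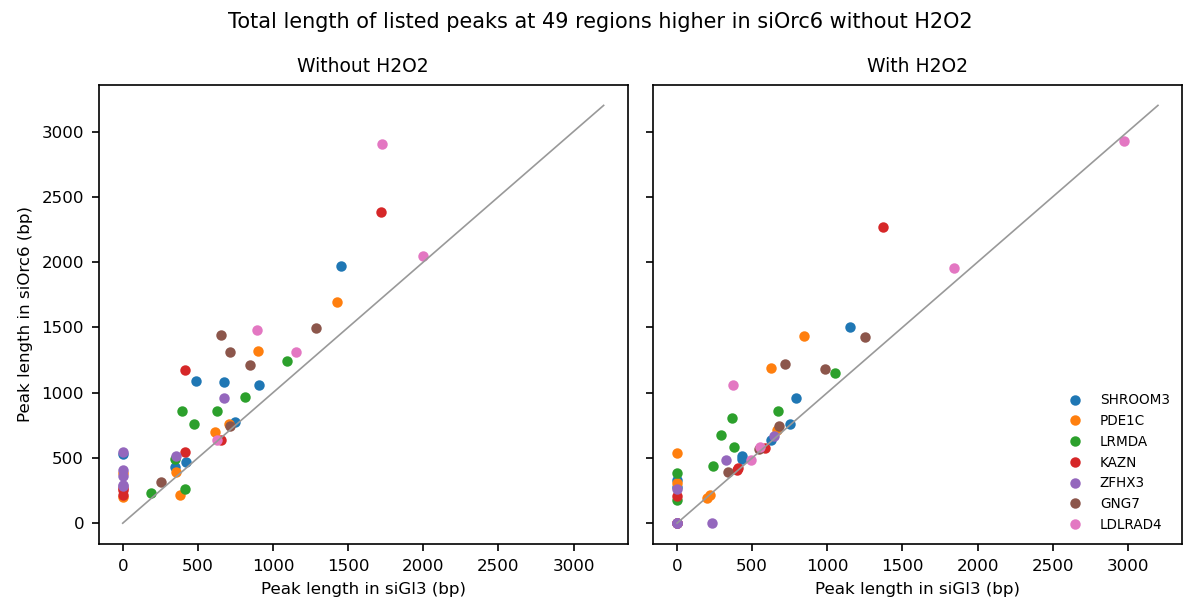
Each point is 1 of the 49 regions higher in siOrc6 without H2O2, coloured by gene, with the summed length of its listed peaks in siGl3 on the horizontal axis and in siOrc6 on the vertical axis, in bp, without H2O2 (left) and with H2O2 (right). The line marks equal length. Without H2O2 46 of 49 points lie above it, and with H2O2 37 of 49. Over all higher regions the shares were 96.9% and 71.5%.

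SHROOM3 (chr4:76435229-76783253, plus strand) had 8 higher regions, 439 to 1971 bp wide. It carried 36 and 29 peaks in siGl3 and siOrc6 without H2O2, and 27 and 29 with it. The widest higher region, at chr4:76589386-76591356 and 155.1 kb into the gene, ranked at 77.1 in siGl3, 94.5 in siOrc6, 67.9 in siGl3 with H2O2 and 77.1 in siOrc6 with H2O2. A region at 230.1 kb (chr4:76665117-76665584) gave 43.1, 66.0, 65.6 and 72.3. Another at 53.77 kb (chr4:76488737-76489264) had no siGl3 peak in either treatment and ranked at 35.6 and 2.78 in siOrc6. The siOrc6 percentile was the higher in 7 of the 8 regions under H2O2, yet none of the 8 was called higher there, and no other H2O2 call was made in the gene. Its 2 lower regions at 128.7 and 268.9 kb were not called with H2O2 either.

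PDE1C (chr7:31616777-32428224, minus strand) had 8 higher regions. Its peaks numbered 46 in siGl3 and 44 in siOrc6, and 36 and 41 with H2O2. The higher regions included the 5′ start and, 357.5 kb further in, a region over 3 internal start sites (chr7:32070085-32071401). That internal region ranked at 51.7 in siGl3 and 76.6 in siOrc6, and at 67.1 and 75.7 with H2O2. The region at chr7:32093370-32094133, 334.5 kb from the 5′ end, was the single PDE1C region called higher in both treatments. It gave 65.0 and 80.8 without H2O2 and 42.3 and 74.8 with it. A further 2 regions had no siGl3 peak without H2O2: chr7:32036647-32036849 (siOrc6 16.3) and chr7:32374842-32375224 (siOrc6 26.4). The one at 53.19 kb, chr7:32374842-32375224, had no peak in either H2O2 list. A lower region at 325.1 kb, between the others, ranked at 71.7 in siGl3 and 50.8 in siOrc6, and at 68.1 and 43.3 with H2O2, where it was not called.

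LRMDA (chr10:75431624-76560168, plus strand) had 8 higher regions, all with a siGl3 peak, and the siOrc6 percentile was the higher in all 8 in both treatments. The gene had 62 peaks in siGl3 and 56 in siOrc6, and 54 and 49 with H2O2. Regions called higher in both treatments numbered 3, the most of any of the 7 genes. At chr10:76309659-76310419 the percentiles were 34.4 in siGl3, 66.8 in siOrc6, 5.43 in siGl3 with H2O2 and 54.3 in siOrc6 with H2O2. At chr10:76491915-76492883 they were 80.9, 87.5, 68.1 and 79.5. At the 3′ end of the gene (chr10:76558701-76559664) they were 47.7, 74.4, 41.1 and 56.9. The first of these also overlaps LOC112268057. Of its 6 lower regions, 2 were called lower in both treatments. At chr10:75774854-75775143 siGl3 ranked at 11.8 and 18.9 and siOrc6 had no peak. At chr10:76050954-76051494 siGl3 ranked at 54.8 and 59.4, and siOrc6 at 1.86 without H2O2 and not at all with it.

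KAZN (chr1:13892824-15118043, plus strand) had 7 higher regions, and none was called higher with H2O2. The gene had 60 peaks in both untreated lists, and 49 in siGl3 and 47 in siOrc6 with H2O2. The strongest higher region, at chr1:14485737-14488231, was 2495 bp wide and ranked at 93.7 and 96.1 without H2O2 and 91.5 and 94.9 with it. The region at the 5′ limit of the gene (chr1:13892614-13893348) ranked at 23 in siGl3 and 53.1 in siOrc6 without H2O2, and at 54.4 and 53.3 with it. A set of 3 narrow regions between 88.01 and 248.1 kb, 218 to 272 bp wide, had no siGl3 peak and ranked between 14.7 and 28.1 in siOrc6. With H2O2 only the last of these 3 kept a siOrc6 peak, at 4.04. A region lower in siOrc6 at chr1:14996046-14997041 ranked at 92.2 and 81.1, and at 92.1 and 81.3 with H2O2.

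ZFHX3 (chr16:72782885-73891930, minus strand) had the weakest regions of the 7 genes. The gene had 36 peaks in siGl3 and 39 in siOrc6, and 32 and 30 with H2O2. Of its 7 higher regions 5 had no siGl3 peak, and the median siOrc6 percentile was 31.4. The region over an internal start site (chr16:73144197-73144606), whose promoter is printed above, ranked at 8.86 in siOrc6 and had no peak in the other 3 lists. The region at chr16:73202166-73202714 was called higher in both treatments, at 43.1 in siOrc6 without H2O2 and 4.56 with it, with no siGl3 peak in either. A region at chr16:73095994-73096505 gave 12.6 and 52.6 without H2O2 and 9.93 and 44.8 with it, without an H2O2 call. The region at chr16:73477736-73478694 holds the lysine tRNA gene TRK-TTT1-1 and ranked at 62.9 and 74.2, and at 57.8 and 63.8 with H2O2. Near the 5′ end (chr16:73891189-73891548, 382 bp inside the start) the only peaks were in untreated siOrc6, at 22.6, and in siGl3 with H2O2, at 2.24.

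GNG7 (chr19:2511219-2702694, minus strand) had 6 higher regions and no lower one, and every region had a peak in all 4 lists. Its peaks numbered 28 in siGl3 and 23 in siOrc6, and 25 and 27 with H2O2. At the promoter (chr19:2702647-2702960) peaks ranked at 29.3 in siGl3 and 50.6 in siOrc6 without H2O2, and at 60.9 and 59.3 with it. At chr19:2578277-2579772 they ranked at 83.4 and 93.5, and at 91.2 and 92.7 with H2O2. None of the 6 was called higher with H2O2. Another GNG7 region was: chr19:2540396-2544490, 4095 bp wide, which was not called without H2O2. Its percentiles were 92.4 in siGl3 and 97.0 in siOrc6 without H2O2, and 90.5 and 91.1 with it. Peaks there covered 3354 and 4046 bp without H2O2 and 1714 and 3743 bp with it, so that the siGl3 and siOrc6 lists differed more in length than in rank. This was the single H2O2 call of the 8 higher ones in the 7 genes that did not overlap an untreated call.

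LDLRAD4 (chr18:13217682-13652754, plus strand) had 5 higher regions and no lower one, and each had a peak in all 4 lists. It had 47 peaks in siGl3 and 42 in siOrc6, and 40 and 39 with H2O2. The region at its 5′ end (chr18:13215914-13219038), 3125 bp wide, held 4 annotated start sites and overlapped LOC124904255. It ranked at 83.8 and 85.7, and at 82.3 and 85.9 with H2O2. At the printed promoter itself the siGl3 peak without H2O2 ranked at 10.1, against 85.7 in siOrc6 (82.3 and 85.9 with H2O2), so the strong siGl3 peak of the region lay beside the start. The summed peak length was 1725 bp in siGl3 and 2905 bp in siOrc6, and 2974 and 2926 bp with H2O2. Just inside the gene, chr18:13219627-13221136 ranked at 47.1 and 80.5 and at 29.0 and 50.1 with H2O2. Next to it, chr18:13221866-13224051 ranked at 75.2 and 93.8 and at 62.4 and 79.6 with H2O2, and was called higher in both treatments. So was chr18:13336718-13337356, at 63.9 and 81.0 without H2O2 and 30.1 and 66.5 with it. The siOrc6 percentile was the higher in all 5 regions in both treatments.

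**Figure D4:**
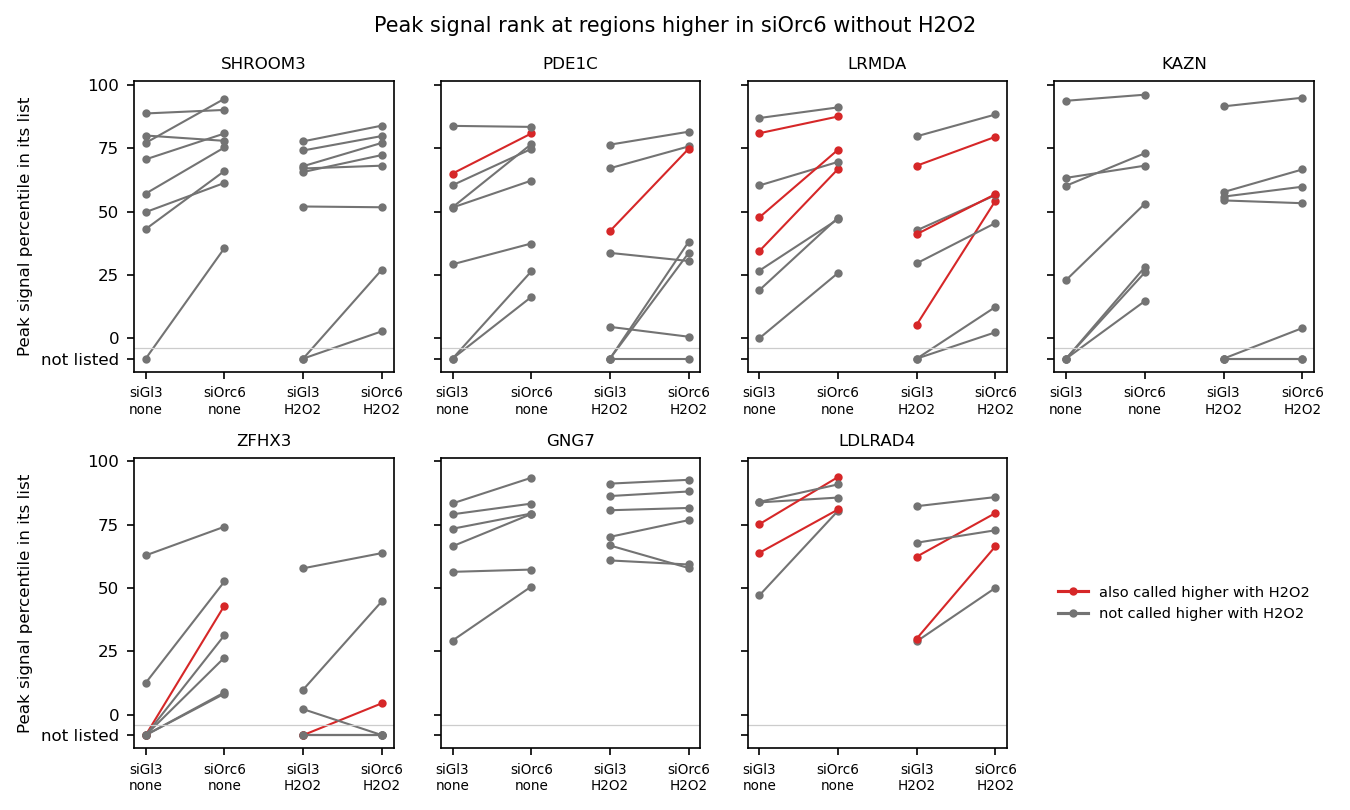
Peak signal percentile in its own list (vertical axis, with unlisted regions at the bottom) for each of the 49 regions higher in siOrc6 without H2O2, by gene and condition; lines join siGl3 and siOrc6 of 1 treatment. Red marks the 7 regions also called higher with H2O2, which lie in PDE1C (1), LRMDA (3), ZFHX3 (1) and LDLRAD4 (2).

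With H2O2 the difference was kept as a call at 7 of the 49 higher regions (14.3%, 95% Wilson interval 7.10% to 26.7%). Over all higher regions 10.8% were also called higher with H2O2. The interval covers counting error only and treats regions of the same gene as independent, so the difference was not tested. SHROOM3, KAZN and GNG7 kept none of their 8, 7 and 6. The list of higher regions was much shorter with H2O2 (1143 regions) than without it (7517), which limits the share that could be kept. The call thresholds are unknown, so a call missing with H2O2 is not read as a lost difference. Of the 13 lower regions 2 (15.4%) were called lower with H2O2, both in LRMDA, against 15.6% of all lower regions. Counted by peaks, 13 of the 285 merged H2O2 peaks of the 7 genes (4.56%, interval 2.68% to 7.65%) lay at a region higher with H2O2, against 1.13% of all merged H2O2 peaks. For regions lower with H2O2 it was 3 of 285 (1.05%) against 1.41%. The untreated and H2O2 calls come from different libraries of the same 2 batch numbers. The genes were chosen on the untreated calls, so the H2O2 calls at those same regions are not independent of the choice.

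Under H2O2 fewer of the 49 regions had the call than had the higher siOrc6 percentile. The siOrc6 percentile was above the siGl3 percentile under H2O2 at 36 of the 49 regions (73.5%, interval 59.7% to 83.8%). This was so at 71.8% of all regions higher without H2O2. At merged untreated peaks with no call, it was so at 87 of 253 (34.4%, interval 28.8% to 40.4%) in the 7 genes and at 34.7% overall. These peaks are no baseline for the called regions. Every called region had an untreated siOrc6 peak, while a peak with no call could be in siGl3 only. A place unlisted in both H2O2 lists counted as not higher, and the siOrc6 list was the shorter with H2O2 (97816 against 103674 peaks). Of the 42 regions without the H2O2 call, 29 had the higher siOrc6 percentile. At 6 of the 49 neither H2O2 list had a peak: 3 of these were in ZFHX3, 2 in KAZN and 1 in PDE1C. At the other 7 the siGl3 percentile was the higher. In SHROOM3 this was chr4:76546491-76547581, at 52.0 in siGl3 and 51.7 in siOrc6. In GNG7 it was the promoter and chr19:2546270-2548055, at 66.8 and 57.9. The others were 2 narrow regions of PDE1C and the regions at the 5′ end of KAZN and of ZFHX3. Ranked only among regions with a peak in every list, the order under H2O2 turned at some of these. The siGl3 and siOrc6 values were 40.0 and 42.3 in SHROOM3, 50.8 and 51.1 at the GNG7 promoter and 42.9 and 44.1 in KAZN. The siGl3 value stayed higher at the other GNG7 region (57.9 and 49.4) and at chr7:31744364-31744753 in PDE1C (20.4 and 19.2). The remaining PDE1C and ZFHX3 regions lacked a peak in some list and had no such rank. Peak length under H2O2 was greater in siOrc6 at 37 of the 49 regions, against 71.5% of all higher regions.

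By presence in the lists, 33 of the 49 regions (67.3%) had a peak in all 4 conditions, against 63.6% of all higher regions. A further 6 (12.2%) had a peak in untreated siOrc6 only, against 15.7%. Regions with a siOrc6 peak in both treatments and no siGl3 peak numbered 3 (6.12%), against 8.10%. The 6 lay in ZFHX3 (3), KAZN (2) and PDE1C (1), and the 5 regions (10.2%, against 7.57%) missing only in siGl3 with H2O2 were 229 to 699 bp wide and lay in PDE1C (2), LRMDA (2) and SHROOM3 (1).

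Genes of related function were described from lists of family members and partners, counting genes with a called region in the gene or its 5 kb flanks. Over all genes with a merged untreated peak, 20.3% had a higher and 13.7% a lower region without H2O2, and 2.76% and 4.0% with it. Of 121 listed genes with a peak, 39 (32.2%) had a higher and 29 (24.0%) a lower region, and 3 and 9 with H2O2. The listed genes had a median of 6.0 merged peaks against 3.0 over all genes, and these counts were not scaled for it.

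Cyclic nucleotide phosphodiesterases and calmodulins, the relatives and activator of PDE1C, gave the most: 14 of 20 had a higher region and 6 a lower one. PDE4D had 6 higher and 1 lower region over 64 merged peaks, PDE2A 2 and 2, PDE4B 1 and 2, and PDE10A 1 and 4. Among TGF-beta signalling genes, to which LDLRAD4 belongs, 9 of 24 had a higher and 5 a lower region. PMEPA1, a relative and likewise a TGF-beta inhibitor, and the SMAD repressor SKI had 2 higher regions each, the inhibitory SMAD6 had 4 lower ones, and LTBP1, which holds latent TGF-beta in the matrix, had 1 higher and 2 lower. G protein subunits gave 7 of 25 and 5, with GNAO1 at 3 higher and 4 lower regions, GNAQ at 3 higher, GNA11 at 2 higher and GNG12 at 1 higher and 2 lower.

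In 3 of the other 4 lists more genes had a lower than a higher region. Kazrin partners, plakins and desmosomal genes gave 3 of 16 with a higher and 6 with a lower region. Periplakin, PPL, had 1 higher region in both treatments and DST had 2 higher ones, while JUP and ARVCF had 2 lower ones each. Zinc finger homeobox genes gave 2 of 10 and 3, with ZFHX2 at 1 higher and 1 lower region, ZEB1 at 1 higher, ZHX3 at 1 lower and ZHX2 at 3 lower. Actomyosin genes around SHROOM3 gave 2 of 17 and 3: MYH9 had 2 higher regions and MYLK 1, and ROCK2 and MYH14 had 1 lower region each in both treatments. Melanocyte genes gave 2 of 9 and 1, in MITF (1 higher, 1 lower) and OCA2 (1 higher).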

How the data were processed

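ATAC-seq peak lists of 4 conditions and lists of changed regions were used as deposited. Per the submitters' processing notes, the build was hg38 and the tools were Genrich, edgeR, deepTools, Bowtie2, SAMtools, Picard and bcl2fastq 2.20. The sources used here do not give their roles, any read shifting, the filters or the call thresholds. The authors' peak lists give a display score (not used), a peak signal (lowest value 200.0), a −log10 p-value and a −log10 q-value. From the authors' lists of changed regions, chromosome, start, end and the order of lines were used. A further column was read as a serial number and was not used.

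The members and gene lists were chosen with earlier results of these data known. Regions were counted by overlap of at least 1 bp with the RefSeq gene (GRCh38.p14) and 5 kb on each side. Region starts are printed counted from 1. Start sites, strands and promoter sequences came from the RefSeq promoter table of the same build, in which all 7 genes were found. Exons and introns were not analysed here. Genes were named by rule: the 7, the 8 others with most higher regions (ties by regions per 100 merged peaks, which left out NRXN3 at 7), 4 contrast genes, THBS1, ORC6, and up to 4 per gene list. Intervals are Wilson 95% intervals and cover counting error only. Peaks outside chromosomes 1 to 22 and X, 147 to 168 a list, were not used. Overlap code was checked against bedtools 2.31.1 and on planted intervals. Computation used pandas 2.3.3, numpy 2.4.6 and scipy 1.17.1 under Python 3.11.15, and plots matplotlib 3.10.9. Alternatives varied the flank, the merging and strength of peaks, the overlap, the length of the list and the ranking. The gene-list flanks and the ranking by −log10 p were chosen after seeing the data.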

Additional observations from a re-analysis of the deposited data

How the results depend on the processing

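Of the first 1143 untreated higher regions, as many as the H2O2 list holds, 11 lay in the 7 genes and 5 of them (45.5%) were also higher with H2O2, against 40.9% of all first-listed regions. The sources used here do not say what orders that list. With only peaks at or above the median signal of their list, 22.4% of the merged peaks of the 7 genes lay at a higher region, against 8.63% of all. Ranked among the regions with a peak in all 4 lists, 31 of 33 (93.9%) had the higher siOrc6 percentile under H2O2, against 89.3% of all such regions; regions unlisted in a condition drop out by construction. The remaining values stayed inside the interval of the reported value, or within 1.5 times a count: flanks of none or 20 kb, merging at 500 bp, other overlaps, signal times width and −log10 p, the last chosen after seeing the data. No paired analysis was possible because each condition had 1 peak list for both library numbers, and for the same reason no library could be left out. Depth is unknown, so an unlisted peak may be absent or not detectable.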
